A study of Mus musculus with 4 samples.

Results

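These data describe B cells of mouse blood whose RNA for the lambda light chain constant segments exceeded that for the kappa constant segment. Cells were chosen from the unnormalised counts of all 4 libraries, in which a UMI (unique molecular identifier) stands for a captured RNA molecule. A barcode needed at least 200 genes, at most 10% mitochondrial UMIs and at least 3 UMIs of Cd79a, Cd79b and Ms4a1 together. It could hold at most 1 UMI of the T cell, myeloid and NK genes Cd3d, Cd3e, Cd3g, Csf1r, Csf3r and Ncr1, none of Cdkn2a, GFP_1, Cd93 and Vpreb3, and at most 2 of the interferon genes Ifit3, Ifit1, Isg15, Usp18 and Oasl1. Of 16157 barcodes 15439 passed the first line and 7619 were B cells by the lines on lineage genes. The last line asked for at least 5 UMIs of Iglc1, Iglc2 and Iglc3 together and more than 2 times the UMIs of Igkc, and it left 2891 cells. The working name of these cells was lambda light chain B cells, but the variable segments they carry go against that name, as shown next. They are therefore called Iglc-dominant B cells, and the 421 B cells that met the mirror rule are called Igkc-dominant B cells. The light chain constant UMIs and the lineage genes chose the cells, so their levels are descriptions and carry no test.

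All mice were C57BL/6J, aged 10 weeks, had been given BCR-ABL leukaemia and were treated with dasatinib, a tyrosine kinase inhibitor. Blood was taken 1 week into dasatinib, when all mice were in remission, treatment went on for 4 more weeks, and at day 100 the mice were divided by outcome into 6 Cured and 6 Relapsed. Frozen leukocytes were thawed, live cells were sorted, and 3 mice were pooled per library, which gave 2 Cured and 2 Relapsed libraries of 10x 5′ single-cell RNA. No untreated mice are among these samples. The labels give no map from cells to single mice, so the pool is the replicate. P-values between Cured and Relapsed rest on the spread between pools. Where kinds of cells from the same pools were compared, p-values rest on how their difference varied between pools. The gene tests also borrow this spread from other genes, since so few pools give little of their own. The Iglc-dominant cells numbered 762 and 912 in the Cured libraries and 349 and 868 in the Relapsed libraries, with 1920003, 2410172, 746479 and 1980713 UMIs. Their median depth was 2345.5, 2432, 1926 and 2113 UMIs per cell. Any 2 libraries shared between 20 and 29 cell barcodes in all, and between 0 and 1 among the Iglc-dominant cells. Relapsed replicate 1 stood apart: it had the fewest of these cells, the lowest depth and 279 barcodes with fewer than 200 genes, against 24 to 28 in the other libraries.

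A B cell makes 1 antibody heavy chain and, in most cells, 1 light chain, which is either kappa or lambda. Each light chain gene is assembled by joining a V segment to a J segment, and the joined exon is then spliced to a constant segment. In mice most B cells use kappa, and lambda is rearranged from a small locus with few V segments, in which each J segment lies just upstream of its own constant segment.

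The sequences of the constant segments are shown because the chosen cells were counted on them. The J segments, which the rule does not use, are shown beside them. On GRCm38 (GENCODE release M21) the genes of the constant segments lie on the minus strand of chromosome 16. They span 19061618 to 19062071 for Iglc1, 19065230 to 19065681 for Iglc3 and 19198396 to 19200351 for Iglc2. The Iglc2 gene is 1956 bases long and takes in Iglj2, against 454 and 452 bases for Iglc1 and Iglc3. How reads over Iglj2 were counted is not stated. Igkc lies on the plus strand of chromosome 6 at 70726435 to 70726966. The J segments are given whole and the constant segments by their first 60 coding bases. Capitals mark bases that differ from Iglj2 in the other J segments, and from Iglc2 in Iglc1 and Iglc3, in an alignment of the coding bases.
Iglj1 (chr16:19063225-19063262, minus strand): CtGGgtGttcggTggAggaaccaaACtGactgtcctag
Iglj2 (chr16:19200198-19200235, minus strand): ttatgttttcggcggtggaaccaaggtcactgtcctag
Iglj3 (chr16:19067041-19067078, minus strand): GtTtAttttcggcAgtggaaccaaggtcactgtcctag
Iglc1 (chr16:19062012-19062071, minus strand): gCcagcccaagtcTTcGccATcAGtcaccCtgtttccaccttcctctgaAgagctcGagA
Iglc2 (chr16:19198794-19198853, minus strand): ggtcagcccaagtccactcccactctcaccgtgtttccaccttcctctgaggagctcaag
Iglc3 (chr16:19065622-19065681, minus strand): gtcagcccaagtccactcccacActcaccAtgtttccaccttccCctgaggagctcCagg
Igkc (chr6:70726435-70726494, plus strand): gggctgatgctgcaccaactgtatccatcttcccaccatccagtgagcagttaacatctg
Iglc2 and Iglc3 differed at 11 of 314 aligned coding bases (96.5% identical), whereas Iglc1 and Iglc2 were 74.8% identical and Iglc2 and Igkc 58.6%. Counts of Iglc2 against Iglc3 are therefore uncertain, and their sum is the safer value. The V segments Iglv1 and Iglv2 were 96.9% identical and carry the same limit. No UMI of Iglj1, Iglj2 or Iglj3 was counted in the Iglc-dominant cells.

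Most Iglc-dominant cells carried kappa variable segments. A cell was called kappa V with at least 5 UMIs of Igkv segments and more than 2 times those of Iglv1, Iglv2 and Iglv3, and lambda V by the mirror rule. Values for 4 libraries are given below in the order Cured replicate 1, Cured replicate 2, Relapsed replicate 1, Relapsed replicate 2. Kappa V cells made up 678 of 762, 803 of 912, 256 of 349 and 748 of 868 Iglc-dominant cells, or 89.0%, 88.0%, 73.4% and 86.2%. In all, 2485 of 2891 cells (86.0%) were kappa V and 199 (6.88%) were lambda V. A further 73 cells carried both kinds, 130 had too few V UMIs to call and 4 lay near the ratio. Lambda V cells were 5.64%, 6.03%, 11.5% and 7.03% of the Iglc-dominant cells, highest in Relapsed replicate 1. The exact 95% binomial interval was 8.32% to 15.3% there and 4.11% to 7.53% in Cured replicate 1, and these intervals cover counting error only. Among the Igkc-dominant cells 366 of 421 (86.9%) were kappa V and 11 (2.61%) lambda V.

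**Figure D1:**
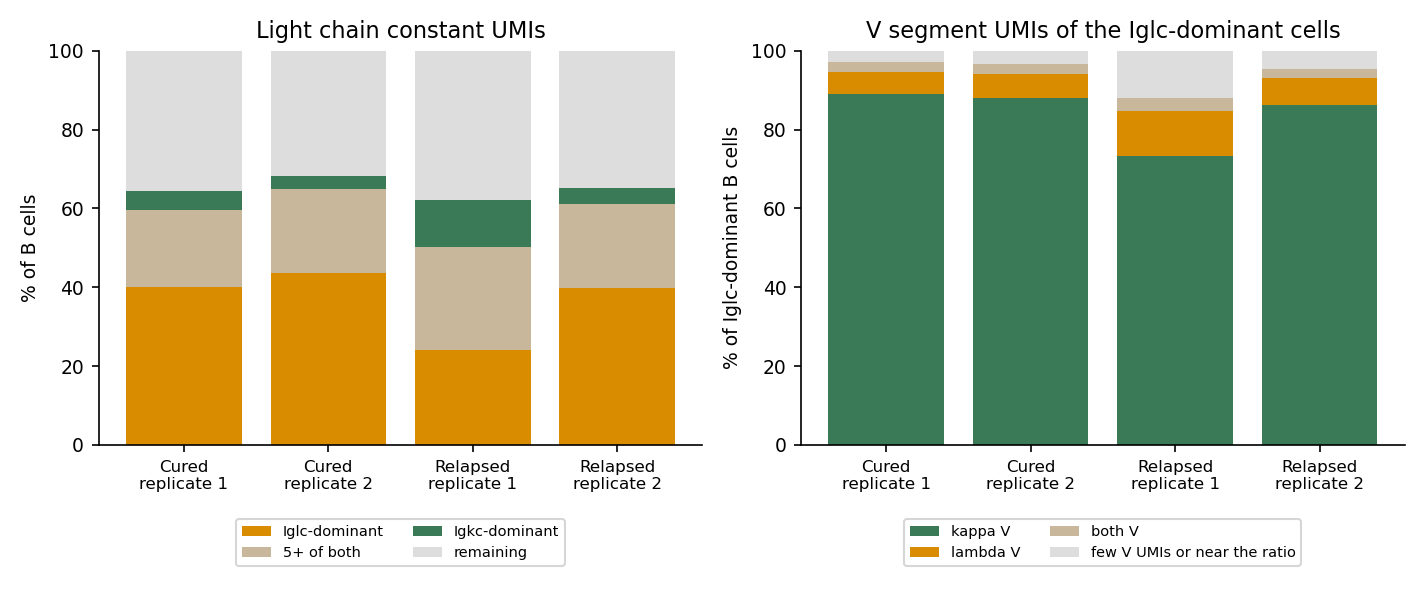
Left, the share of B cells (%) in each library by their light chain constant UMIs: Iglc-dominant, at least 5 of both, Igkc-dominant and the remaining cells. Right, the share of Iglc-dominant B cells (%) by V segment. Kappa V cells make up 73.4% to 89.0% of the Iglc-dominant cells in every library.

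Nor did the rule on constant UMIs take in all lambda V cells. Lambda V cells were 101 of 1900, 113 of 2088, 76 of 1446 and 129 of 2185 B cells, or 5.36% ± 0.0679 in Cured and 5.58% ± 0.458 in Relapsed libraries (mean ± SD, n = 2 each). An exact two-sided permutation test of the Cured against the Relapsed share gave p = 1, in a design that cannot give a p below 0.333. Of these 419 cells 199 were Iglc-dominant. The share that was Iglc-dominant was 42.6%, 48.7%, 52.6% and 47.3% of lambda V cells and 40.9%, 44.1%, 22.2% and 39.7% of kappa V cells. The lambda V share was the higher in each library. The exact 95% binomial intervals of the 2 shares overlapped in every library but Relapsed replicate 1, where they ran from 40.8% to 64.2% and from 19.8% to 24.7%.

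The V segment was called without the constant UMIs, so the constants could be compared between lambda V and kappa V cells over all 7619 B cells. UMIs were summed per library and kind and fitted with edgeR's quasi-likelihood test with the library as a block and Benjamini-Hochberg adjustment, and a gene was called at an adjusted p under 0.05. Of 7320 genes other than light chain V segments 29 were called (0.396%). CPM is edgeR's scaled count, a gene's UMIs brought to the same total in every sum of cells. Iglc1 was at 285, 358, 622 and 432 CPM in the lambda V cells, against 142, 178, 172 and 192 CPM in kappa V cells. Every lambda V value lay above every kappa V value, and the fitted log2 difference was 1.26 ± 0.11 (SE, adjusted p = 6.28e-09). Iglc3 went the other way, at 720, 727, 827 and 679 CPM in lambda V cells against 1363, 1439, 1396 and 1522 CPM in kappa V cells (log2 difference -0.96 ± 0.06, adjusted p = 4.2e-15). Iglc2 was also lower in lambda V cells, by a log2 difference of -0.23 ± 0.05 (adjusted p = 0.00834), a call that was lost without Cured replicate 2 or Relapsed replicate 2. The split between Iglc2 and Iglc3 is uncertain, as said above, and their sum was not tested. Over the 3 segments together and all libraries, lambda V cells held 5.54 Iglc UMIs per cell and kappa V cells 7.23.

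Igkc RNA was at 616, 564, 396 and 508 CPM in the lambda V cells and at 1623, 1615, 2633 and 1865 CPM in the kappa V cells. The groups did not overlap, but the fitted log2 difference of -1.84 ± 0.28 did not pass the test (adjusted p = 0.366). Kappa V cells held 4.17 Igkc and 24.6 Igkv UMIs per cell, and lambda V cells 1.19 Igkc, 1.74 Igkv and 24.8 Iglv UMIs per cell. T cells were chosen with at least 3 UMIs of Cd3d, Cd3e and Cd3g together and no UMI of Cd79a, Cd79b or Ms4a1. They held 0.0679 Iglc UMIs per cell, and 6.54% of them had any. By the same measure 96.5% of kappa V and 95.2% of lambda V B cells had an Iglc UMI. The T cell values are a background measured in cells that should lack these genes. Leaving out T cells with B cell UMIs can lower it, and its source was not tested.

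**Figure D2:**
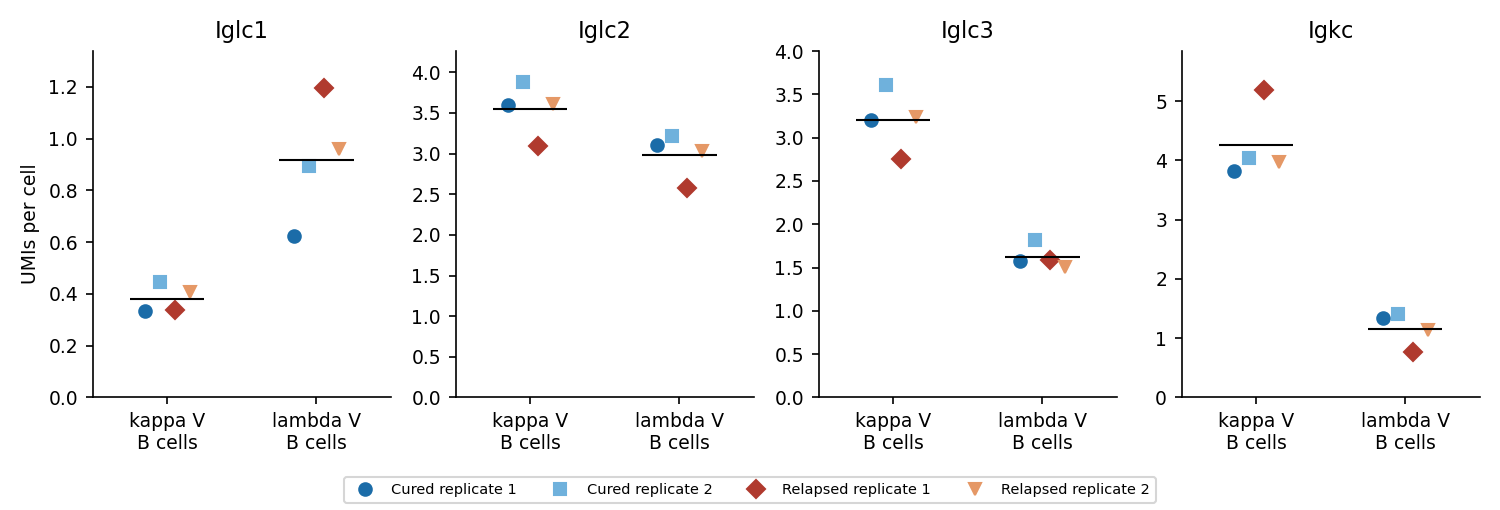
Mean UMIs per cell of Iglc1, Iglc2, Iglc3 and Igkc in kappa V and lambda V B cells, with 1 point per library and a line at the mean of the 4 libraries. Iglc1 is higher and Iglc3 lower in the lambda V cells of all 4 libraries, and both kinds carry Iglc2 and Iglc3 UMIs. The split between Iglc2 and Iglc3 is uncertain.

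Within the Iglc-dominant cells, Iglc2 and Iglc3 made up nearly all the lambda constant RNA. Iglc2 was 50.6% of Iglc UMIs (49.6% to 51.7% over libraries), Iglc3 42.8% (41.0% to 43.7%) and Iglc1 6.55% (5.12% to 8.53%). At least 1 UMI of Iglc2 was found in 98.2% to 99.2% of cells and of Iglc1 in 31.0% to 41.5%. Cells led by Iglc2 and Iglc3 numbered 747, 888, 326 and 839, and none was led by Iglc1. Taking 3 cells as the most that a count of 0 allows, Iglc1-led shares could be up to 0.402%, 0.338%, 0.920% and 0.358% of the cells with a leading kind. The constant segment Iglc4 had 3, 0, 0 and 2 UMIs, and Igll1, the surrogate light chain of precursor B cells, had 0 in every library.

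The 199 lambda V cells among them were led by Iglv1 in 141 cells, Iglv2 in 39 and Iglv3 in 19. The Iglc makeup differed between these small sets as a description: Iglc3 was 25.5% of Iglc UMIs in Iglv1 cells, 37.9% in Iglv2 cells and 44.8% in Iglv3 cells, and Iglc1 16.3%, 13.6% and 12.6%. In the 2485 kappa V cells Iglc3 was 44.0% and Iglc1 5.90%. The likeness of Iglc2 to Iglc3, and of Iglv1 to Iglv2, makes these splits uncertain. The kappa V cells used many segments. The most frequent single leading segments among all Iglc-dominant cells were Igkv1-117 (116 cells), Igkv10-96 (113) and Igkv1-135 (93), each in at most 4.01% of them.

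Just inside the threshold, 85, 74, 53 and 102 Iglc-dominant cells had exactly 5 Iglc UMIs. Just outside, 54, 55, 27 and 67 B cells with 4 Iglc UMIs met the ratio. A further 79, 88, 58 and 115 cells passed the ratio by a single UMI, and 75, 70, 48 and 78 fell on it and were left out.

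Iglc-dominant cells were 40.1% and 43.7% of B cells in the Cured libraries and 24.1% and 39.7% in the Relapsed libraries. The group values were 41.9% ± 2.53 and 31.9% ± 11.02 (mean ± SD, n = 2 each), and the exact two-sided permutation test gave p = 0.333, the smallest that 2 against 2 libraries allow. The groups did not overlap, but the gap rested on Relapsed replicate 1: without it the difference fell from 9.96 to 2.17 percentage points. With every cell thinned to 1000 UMIs before the rule was applied the shares were 17.2%, 19.8%, 14.6% and 21.5%, the groups overlapped and the difference was 0.454 percentage points. In blood, fewer cells of a kind and less RNA per cell cannot be told apart by such a share.

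The defining B cell genes were present. Cd79a, a signalling chain of the B cell receptor, was found in 98.9% to 100% of Iglc-dominant cells. Ighm RNA, which encodes the IgM heavy chain, was found in 87.3%, 88.4%, 91.1% and 88.0% of cells and Ighd, for IgD, in 65.4%, 73.1%, 82.2% and 72.9%. Switched isotypes were rare: Igha was found in 1.15% to 2.10% of cells, Ighg1 in none, and Jchain, a plasma cell gene, in none. Platelet markers were at 0 of 4 in every library and BCR_ABL_1 was at 0. Of 10 T cell markers 8, 7, 3 and 7 were detected, with Trac and Cd4 at 0 in every library. The rule limits the Cd3 genes and allows no UMI of GFP_1 or Cdkn2a, so low T cell or leukaemic signal is partly set by it.

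The Iglc-dominant cells of Cured and Relapsed libraries differed in 3 of 8422 genes tested (0.0356%), all higher in Cured and all kappa V segments. Igkv14-100 had 249 and 183 UMIs in the Cured and 0 and 6 UMIs in the Relapsed libraries, and the UMIs came from 16, 11, 0 and 3 cells. Its log2 difference was 5.51 ± 0.50 (edgeR, adjusted p = 0.00136), which rests on a library at 0 and depends on the model's prior count. Igkv10-95 had 68, 70, 5 and 11 UMIs from 8, 6, 2 and 2 cells (log2 difference 2.43 ± 0.34, adjusted p = 0.0317). Igkv8-21 had 213, 228, 12 and 74 UMIs from 16, 18, 2 and 9 cells (1.77 ± 0.26, adjusted p = 0.0441). These 3 segments mark small sets of cells in pools of 3 mice. With at least 10 light chain UMIs per cell 1 of the 3 calls was kept, and with a ratio of 10 none was. With cells thinned to 1000 UMIs 1 was kept. V segment RNA as a whole also differed between the libraries. All kappa V segments together held 27.3 and 27.4 UMIs per Iglc-dominant cell in Cured and 12.6 and 21.6 in Relapsed libraries. A heavy V segment led with at least 2 UMIs in 525 of 762, 623 of 912, 91 of 349 and 493 of 868 cells. The part of this in the 3 calls was not tested. Without Relapsed replicate 1 the log2 difference of Igkv14-100 was 5.05 and did not pass (edgeR adjusted p = 0.672). At an unadjusted p under 0.05 there were 603 genes, and 3451 of the 8422 genes (41.0%) did not overlap between the groups. Without Relapsed replicate 2 the test called 819 genes.

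**Figure D3:**
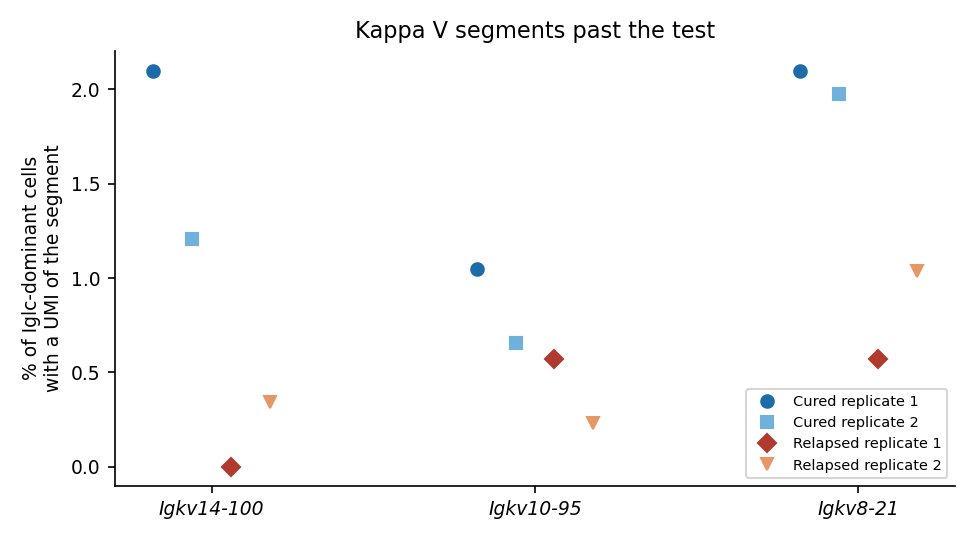
The share of Iglc-dominant cells (%) with at least 1 UMI of each kappa V segment past the test, with 1 point per library. For each segment both Cured libraries lie above both Relapsed libraries, and the points stand for 0 to 18 cells.

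The gene lists held no other call between Cured and Relapsed. Ighm was at 960 and 923 CPM in Cured and at 1800 and 1156 CPM in Relapsed libraries (log2 difference -0.65 ± 0.17, edgeR adjusted p = 0.455), and Ighd at 522, 569, 1009 and 682 CPM (-0.62 ± 0.17, adjusted p = 0.455). Both genes were highest in Relapsed replicate 1. None of the 18 tested genes of the receptor complex and signalling list passed, and 10 of them had positive differences, with a list median of 0.04 against a median near 0 over all 8422 genes. Cd22, an inhibitory receptor of B cells, was at 97.1 and 131 CPM in Cured and 203 and 170 CPM in Relapsed libraries (adjusted p = 0.455). None of 13 B cell identity factors passed (2 positive, median -0.21), nor of 9 marginal zone genes (1 positive, median -0.30), 12 MHC class II genes (10 positive, median 0.15) or 12 genes of receptor-driven activation (10 positive, median 0.17). Junb, an immediate early gene, was at 1311, 904, 668 and 782 CPM (adjusted p = 0.455). None of 8 genes of the heat shock and thaw list passed (6 positive, median 0.31), and Hspa8, a chaperone, was at 1062, 848, 547 and 617 CPM (log2 difference 0.71 ± 0.14, adjusted p = 0.227).

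Other named genes with the smallest p did not pass either. Scaf11, a splicing-related gene, was at 876, 968, 1457 and 1393 CPM (log2 difference -0.63 ± 0.12, edgeR adjusted p = 0.159). Hnrnpa0, an RNA-binding protein gene, Eif2ak3, the endoplasmic reticulum stress kinase PERK, and Chst3, a carbohydrate sulfotransferase, had log2 differences of -1.13, -1.01 and -1.04 (adjusted p 0.392, 0.4 and 0.4). Lyz2, a myeloid gene, had 91, 49, 7 and 13 UMIs and a log2 difference of 2.15 ± 0.47 (adjusted p = 0.383). In Cured replicate 1, 52 of its 91 UMIs came from 1 cell. Neutrophil markers summed to 2283, 785, 187 and 254 UMIs (5 of 5 markers detected in every library), and 864 of the 1086 S100a9 UMIs of Cured replicate 1 came from 1 cell. Red cell markers summed to 2367 UMIs in Relapsed replicate 1 against 15 to 40 in the others. NK markers summed to 25, 22, 16 and 161 UMIs, and T cell markers to 59, 78, 22 and 59. No doublet caller was run, and the part of these signals in the gene comparisons was not tested.

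Iglc-dominant and Igkc-dominant cells were then compared in their other genes. Genes of the rule and genes with an Igk or Igl symbol were left out by name, which leaves in Gm30211, a noncoding RNA that covers Igkc. Of the 4748 genes left 14 passed (0.295%, edgeR with the library as a block), 11 higher (0.232%) and 3 lower (0.0632%) in Iglc-dominant cells. Gm30211, tied to the rule through Igkc, is among the 3 lower genes, so its call is no test result. Ftl1, the ferritin light chain, was at 1895, 1924, 1706 and 2025 CPM in Iglc-dominant and 1612, 1486, 1298 and 1820 CPM in Igkc-dominant cells (log2 difference 0.29 ± 0.05, adjusted p = 0.00013). Actg1, a cytoplasmic actin, rose by 0.40 ± 0.07 (adjusted p = 0.000396), Cd52, a leukocyte surface glycoprotein, by 0.23 ± 0.04 (adjusted p = 0.000872) and Tmsb4x, an actin-binding peptide, by 0.12 ± 0.03 (adjusted p = 0.0296). Each of these 4 genes was higher in the Iglc-dominant cells of all 4 libraries, and the other higher genes encode ribosomal proteins. Malat1, a nuclear noncoding RNA, fell by 0.20 ± 0.03 (adjusted p = 4.17e-07) and Vim, the intermediate filament vimentin, by 0.48 ± 0.10 (adjusted p = 0.00303), both in all 4 libraries. Depth differed between these cells: the median was 2345.5, 2432, 1926 and 2113 UMIs in Iglc-dominant and 2176.5, 2241.5, 1820 and 1864 UMIs in Igkc-dominant cells. With Igkc-dominant cells matched for depth 3 genes were called. Malat1 and Vim passed in that fit, while Ftl1, Actg1, Cd52 and Tmsb4x did not (edgeR adjusted p 0.328, 0.271, 0.328 and 0.835). With cells thinned to 1000 UMIs 1 gene was called and none of these 6 passed, so that call was Gm30211 or a ribosomal protein gene. Cd52 did not pass without Relapsed replicate 2 (0.18, adjusted p = 0.131). Vim passed only without Cured replicate 1 among the fits that left out a library (adjusted p 0.13 without Cured replicate 2, 0.0773 and 0.0504 without Relapsed replicates 1 and 2). Tmsb4x lost its call in 11 of 14 alternatives, among them each library left out except Relapsed replicate 1.

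Gm30211, chosen after its values were seen, is a noncoding RNA on chromosome 6 at 70719074 to 70740554 on the plus strand, so it covers Igkc on the same strand. It was at 285, 268, 249 and 241 CPM in Iglc-dominant and at 534, 621, 440 and 518 CPM in Igkc-dominant cells, without overlap. Igkc UMIs chose the cells, so these levels are a description with no test. The sources used here do not say how reads shared by both genes were counted, so its counts and those of Igkc are uncertain.

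No heavy chain gene passed. Ighm was at 1000, 960, 1943 and 1210 CPM in Iglc-dominant and 1005, 1044, 1903 and 1187 CPM in Igkc-dominant cells (log2 difference -0.01 ± 0.06, edgeR adjusted p = 1.00). Heavy chain V segments were compared by the cells each led with at least 2 UMIs, and none of 34 segments passed (0%, with 1 at an unadjusted p under 0.05). Ighv3-6 led 85 Iglc-dominant cells, followed by Ighv1-26 (69), Ighv1-64 (65) and Ighv8-8 (61). The other lists gave 1 call: Vim, counted above, is on the B-1 list (1 of 5 tested genes lower). None of 12 follicular and homing genes passed (1 positive, median -0.13). None of 12 MHC class II genes passed (1 positive, median -0.07, against -0.01 over all genes tested).

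**Figure D4:**
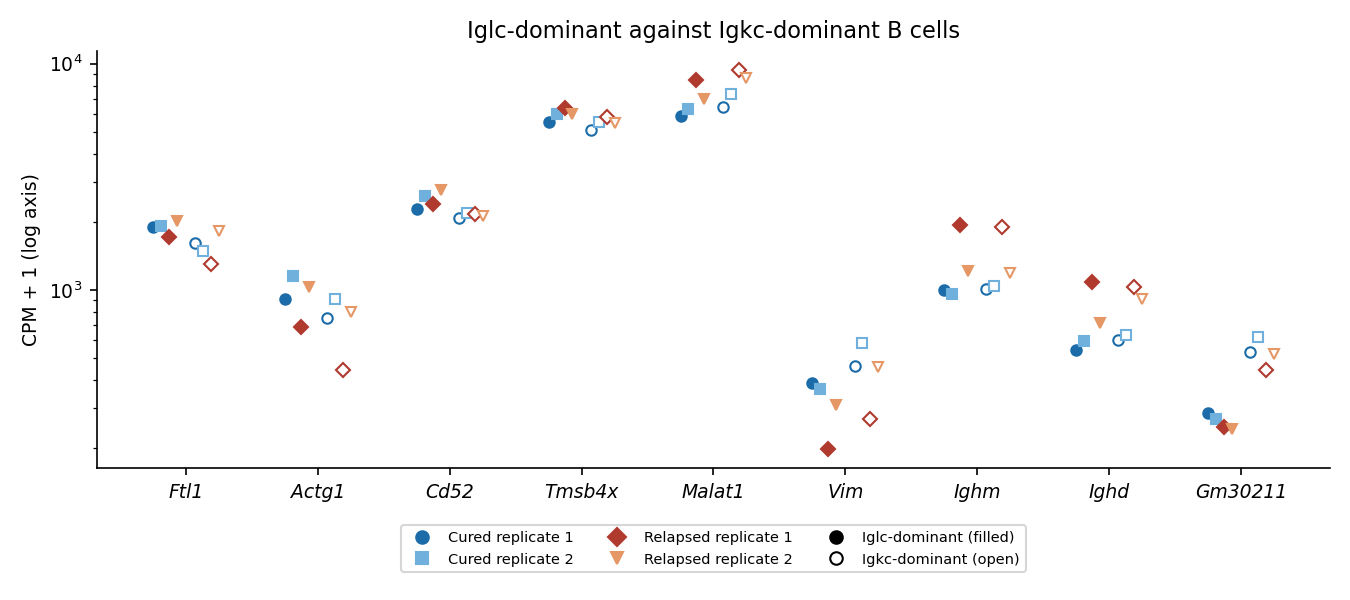
CPM + 1 on a log axis in Iglc-dominant (filled) and Igkc-dominant (open) cells, with 1 point per library. Gm30211 and Cd52 separate without overlap, the other genes overlap, and each called gene moves the same way in all 4 libraries.

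Inside the Iglc-dominant cells, the 199 lambda V cells differed from the 2485 kappa V cells in 14 of 3547 genes left after the same exclusion by name (0.395%), 9 higher (0.254%) and 5 lower (0.141%) in lambda V cells. Gm30211, tied to the rule through Igkc, is among the 5 lower genes, so its call is no test result. Mzb1, a chaperone-associated protein of the endoplasmic reticulum abundant in marginal zone and B-1 cells, was at 598, 710, 526 and 586 CPM in lambda V and 452, 419, 479 and 459 CPM in kappa V cells. It was higher in all 4 libraries, without overlap (log2 difference 0.46 ± 0.11, edgeR adjusted p = 0.00975). In Cured replicate 2, 22 of the 996 Mzb1 UMIs came from 1 Iglc-dominant cell, whose V kind was not examined. Over all B cells Mzb1 also passed (0.39 ± 0.08, adjusted p = 0.00384). Without Cured replicate 2 it did not pass in either set (0.31 and 0.30, adjusted p 0.568 and 0.35), nor over all B cells without Relapsed replicate 2 (adjusted p = 0.124). Rilpl2, a regulator of membrane traffic, was at 51.6, 66.3, 76.9 and 128 CPM against 32.6, 31.5, 32.1 and 42.9 CPM (1.22 ± 0.29, adjusted p = 0.0145). Rilpl2 did not pass without Cured replicate 2 (adjusted p = 0.0701) or Relapsed replicate 2 (adjusted p = 0.46).

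Tagln2, an actin-binding protein, rose by 0.59 ± 0.14 (edgeR adjusted p = 0.0162) and Pim1, a survival kinase, by 1.03 ± 0.25 (adjusted p = 0.0188), each in 4 of 4 libraries. Ahnak, a large scaffold protein, rose by 1.42 ± 0.32 (adjusted p = 0.00664), in 3 of 4 libraries, from 6, 17, 4 and 15 UMIs in the lambda V cells. Among all Iglc-dominant cells, single cells held 12 Ahnak UMIs in Cured replicate 2 and 10 in Relapsed replicate 2. Whether those were lambda V cells was not examined. Ighm rose by 0.25 ± 0.07 (adjusted p = 0.0459) in 4 of 4 libraries. Without Cured replicate 2 none of Tagln2, Pim1, Ahnak and Ighm passed (edgeR adjusted p 0.639, 0.523, 0.469 and 0.105). Tagln2 also did not pass without Cured replicate 1 (adjusted p = 0.25), Pim1 without Relapsed replicate 1 (0.343) and Ahnak without Relapsed replicate 2 (0.106). Ighm lost its call with any 1 library left out, and without Relapsed replicate 2 its difference was 0.14. In B cells outside the Iglc-dominant set Ahnak, Pim1 and Ighm had differences of -0.40, -0.11 and -0.11 between lambda V and kappa V cells. The heavy V segments Ighv6-3 and Ighv9-3 were higher in lambda V cells by 1.78 ± 0.21 and 1.39 ± 0.29 (edgeR adjusted p 1.11e-07 and 0.00248). They were higher in 4 and 3 of 4 libraries, with 1 and 0 UMIs in the lambda V cells of Relapsed replicate 1. By counts of cells led by a segment none of 28 passed (0%, with 5 at an unadjusted p under 0.05). Ighv9-3 did not pass without Cured replicate 2 (edgeR adjusted p = 0.202). The mitochondrial gene mt-Co2 was the other higher gene.

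The lower genes included markers of other cells. S100a8 and S100a9, neutrophil calcium-binding proteins, fell by 3.29 ± 0.30 and 3.52 ± 0.30 on the log2 scale (edgeR adjusted p 3.3e-10 and 5.55e-11), and 8 of the 2891 cells held 10 or more UMIs of S100a9. Most of the S100a9 UMIs of each library came from 1 cell, so these calls rest on few cells. Cers4, a ceramide synthase, fell by 2.22 ± 0.58 (adjusted p = 0.0386), but had only 1, 2, 1 and 0 UMIs in the lambda V cells. Cd52 fell by 0.19 ± 0.05 (adjusted p = 0.05). Both were lower in 4 of 4 libraries. Cd52 lost its call in 10 of 11 alternatives, any 1 library left out included. Cers4 did not pass without Cured replicate 1 (edgeR adjusted p = 0.0788), Cured replicate 2 (0.159) or Relapsed replicate 2 (0.465). Gm30211, tied to the rule through Igkc, was at 103, 146, 38.5 and 26.9 CPM in lambda V against 301, 292, 311 and 268 CPM in kappa V cells, a description with no test.

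Of the lists, marginal zone genes had 1 call among 7 tested genes (Mzb1, with 6 positive and a median of 0.46) and B-1 genes 1 among 5 (Ahnak, 5 positive, median 0.75), against a median near 0 over all 3547 genes. Neither Cd9 (51.6, 73.0, 51.3 and 53.9 CPM against 30.2, 29.0, 32.1 and 31.5 CPM, edgeR adjusted p = 0.284) nor Fcrl5 (adjusted p = 0.393), both marginal zone markers, passed. Cd72, an inhibitory coreceptor, was at 134, 192, 154 and 114 CPM against 193, 271, 180 and 233 CPM (adjusted p = 0.0689), and Ccr7, a homing receptor, had a difference of -0.34 (adjusted p = 0.268). None of 11 MHC class II genes and none of 17 receptor complex genes passed.

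**Figure D5:**
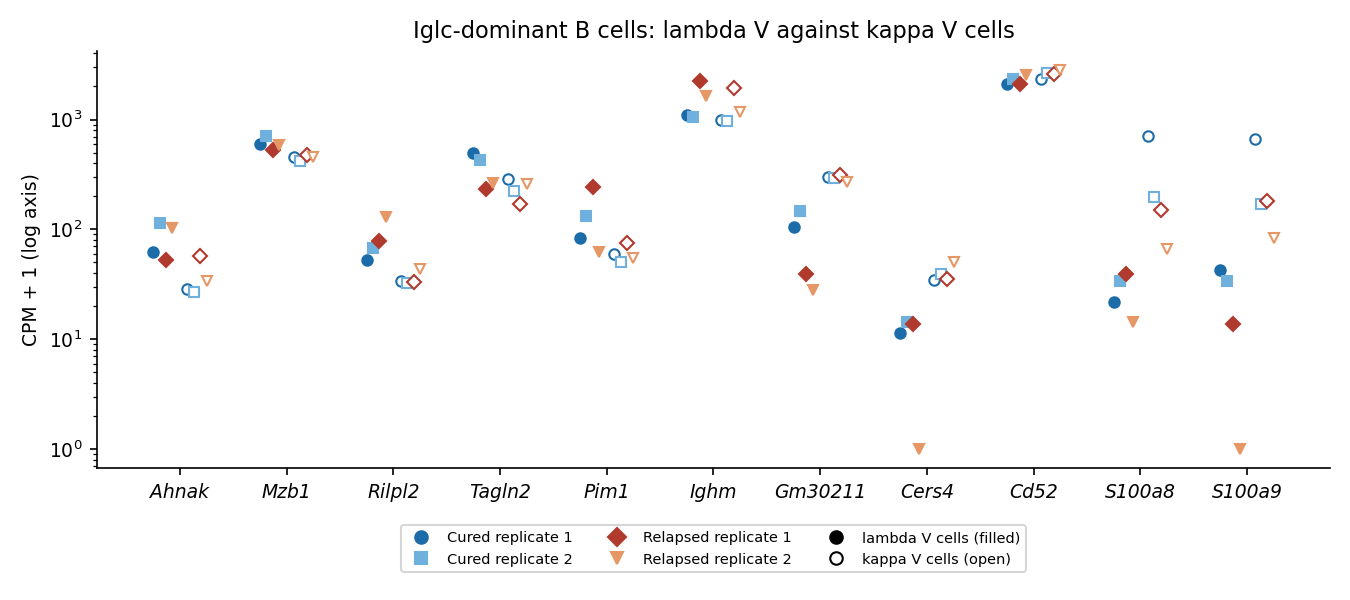
CPM + 1 on a log axis in the lambda V (filled) and kappa V (open) cells among the Iglc-dominant cells, with 1 point per library. Mzb1, Rilpl2, Gm30211, Cers4, S100a8 and S100a9 separate without overlap, and the other genes plotted overlap. The lambda V values of Cers4 rest on 0 to 2 UMIs per library.

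A noncoding RNA on the opposite strand of the lambda locus, 2010309G21Rik (chr16:19051367-19106749, plus strand, chosen after its values were seen), was lower in the lambda V cells. It covers Iglc1, Iglj1, Iglc3 and Iglv1, and whether counting used strand is not stated. Over all B cells it was at 54.4, 46.1, 41.0 and 34.8 CPM in lambda V and 74.6, 73.7, 69.8 and 81.8 CPM in kappa V cells, without overlap (log2 difference -0.79 ± 0.21, edgeR adjusted p = 0.0475). The call was lost in 7 of 10 alternatives, any 1 library left out included. Within the Iglc-dominant cells alone the difference was -0.77 ± 0.29 and did not pass (adjusted p = 0.393).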

How the data were processed

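Per the labels' protocols, thawed, live-sorted blood leukocytes of 3 mice per library were processed with 10x 5′ chemistry. The deposited values are raw UMI counts per gene and barcode, made by the authors with Cell Ranger 3.1.0 against mm10 per the submitters' processing notes. For the annotation release and the treatment of shared reads, nothing is stated in the sources used here. From these counts, cells were chosen by the rule in the report (Python 3.11.15), UMIs were summed per library and class, and sums were tested with edgeR 4.0.16 on R 4.3.3 (TMM factors, filterByExpr, robust quasi-likelihood fit, Benjamini-Hochberg adjustment, threshold 0.05). DESeq2 1.42.0 was an alternative. Cells were not treated as replicates and no doublet caller was run. Shares were compared with exact permutation tests over libraries. The fits were run on simulated sums with planted changes and otherwise the same expected share of UMIs in every library. Between Cured and Relapsed, 7 of 67 planted 1.5-fold, 31 of 67 2-fold and 60 of 66 4-fold changes were called. For Iglc-dominant against Igkc-dominant cells these were 20 of 67, 47 of 67 and 58 of 66. False calls numbered 4 and 8, and 2 and 5 for lambda V against kappa V among Iglc-dominant and all B cells. A gene not called may still differ by 1.5-fold or 2-fold.

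The members and gene lists were chosen with earlier results of these data known, and the V segment comparisons were added after the data were seen. Named genes were those of smallest p past the test with at least 20 CPM in a group (at most 12 per direction, filled to 6 where fewer passed), without rule genes, immunoglobulin segments, ribosomal, mitochondrial or sex-linked genes and unnamed loci. Added to them were marker genes, heavy chain constants and up to 3 genes per list. Sequences and positions were read from GENCODE M21 (GRCm38).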

Additional observations from a re-analysis of the deposited data

Results flagged for a closer look

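The Cured against Relapsed difference differed between Iglc-dominant and Igkc-dominant cells for 8 of 5699 genes by an interaction term (0.14%, edgeR), all V segments and all more positive in Iglc-dominant cells. The fitted log2 differences of the effects were 2.47 for Igkv1-135 (adjusted p = 1.41e-07), 3.89 for Igkv6-25, 1.63 for Igkv12-44, 1.07 for Igkv17-127 and 5.28 for Igkv11-125. They were 9.68 for Ighv5-4, 8.95 for Igkv4-70 and 8.94 for Ighv1-15, whose UMIs were 0 in the Igkc-dominant cells of both Cured libraries, so that these 3 values depend on the prior count and are no bounds. The value of Igkv11-125 also rests on libraries at 0. Igkv1-135 had 1212 and 1659 UMIs in Cured and 248 and 887 in Relapsed Iglc-dominant cells, against 35, 18, 130 and 96 in Igkc-dominant cells. Those Igkc-dominant UMIs came from 1, 1, 11 and 9 cells. With at least 10 light chain constant UMIs per cell only Igkv1-135, Igkv6-25, Igkv12-44 and Igkv17-127 could be tested, and none of them passed. All kappa V segments together held 27.3, 27.4, 12.6 and 21.6 UMIs per Iglc-dominant cell and 20.4, 19.4, 15.8 and 22.2 per Igkc-dominant cell, in the order Cured replicates 1 and 2, Relapsed replicates 1 and 2, and the part of this in the 8 calls was not tested.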

How the results depend on the processing

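The V segment comparisons and the fits on kappa V cells alone were chosen after seeing the data. Counts of genes past the test moved with most settings. Between Cured and Relapsed Iglc-dominant cells, 3 genes became 6 with DESeq2, 71 with no count filter, 13 with at least 10 light chain UMIs and 1 with a ratio of 10. With immunoglobulin genes left out 0 were called, and leaving out a library gave 19 to 819. Those counts were 19 and 50 when Cured replicates 1 and 2 were dropped, and 38 and 819 when Relapsed replicates 1 and 2 were. Against Igkc-dominant cells, 14 became 2 with DESeq2, 116 with no filter and 2 with at least 10 UMIs. They became 1 thinned, 1 with no library block and 3 depth-matched (10 to 25 without a library). Ftl1, Actg1, Cd52, Tmsb4x, Malat1 and Vim passed in neither of the fits with 1 call. The difference of effects, 8 genes, became 2 with DESeq2, 18 with no filter, 1 without immunoglobulin genes and 4 with at least 10 UMIs (7 to 29 without a library). Among Iglc-dominant cells, the 14 genes of lambda V against kappa V became 4 with DESeq2, 48 with no filter, 8 without immunoglobulin genes, 6 thinned and 26 in all B cells (6 to 28 without a library). In all B cells, 29 became 17, 44, 4 and 12 under the first 4 of these settings (12 to 22 without a library).

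The share of Iglc-dominant cells differed by 2.17 to 17.8 percentage points without a library, lambda V of Iglc-dominant cells by -5.62 to -1.19, and lambda V of B cells by -0.54 to 0.108, reversed without Relapsed replicate 2. The Iglc1-led share differed by -0.0808 with at least 3 UMIs and -0.104 when thinned (0 to 0 without a library).

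Replicate numbers are shared by label only: deviations of same-numbered libraries correlated at r = 0.0253 over 8422 genes. With a replicate block 16 genes were called between Cured and Relapsed, and the share differences were 9.96, 0, -3.41 and -0.216 percentage points.

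Of the settings run for named genes, 809 kept direction and call, 167 lost the call, 60 gained it and 27 reversed. The named genes include those that chose the cells, such as Iglc2 and Igkc, and genes not called in the main fit. For the latter, keeping the call means staying uncalled, so 809 does not measure how stable the calls were. In B cells outside the Iglc-dominant set, lambda V against kappa V gave -0.40 for Ahnak, -0.11 for Pim1, -0.11 for Ighm, -0.62 for Cd9 and 0.082 for Ccr7. Cured against Relapsed gave 0.64 for Iglv1 and 0.63 for Iglv2 in kappa V cells only. Iglv3 gave -0.026 without Cured replicate 1 (-0.026 to 0.53 over libraries left out), -0.44 with at least 10 UMIs and -0.60 with a ratio of 10, where Igkc gave 0.36 and Cd79a -0.0037. Cd79a gave -0.011 without Relapsed replicate 1 (-0.011 to 0.23 over libraries left out). Against Igkc-dominant cells, Cd79a gave 0.094 with no filter, 0.022 with at least 10 UMIs, 0.042 thinned, 0.0062 depth-matched and -0.030 to 0.035 without a library. Ighm gave 0.090 with no filter, 0.052 thinned, 0.0098 depth-matched and -0.027 to 0.021 without a library, and Ighd 0.0031 thinned and 0.0083 depth-matched. Igkv12-44 and Igkv17-127 gave -1.39 and -0.28 with at least 10 UMIs. The cause was not tested. A ratio of 10 against Igkc-dominant cells and at least 10 UMIs for V within Iglc-dominant cells were not run, since a sum would hold as few as 4 and 9 cells (limit 20). Depth limits calls on V segments, which rest on few cells, and 2 pools per group limit every comparison of Cured with Relapsed.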
